A study of Mus musculus with 2 samples.

Results

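Genes of the prostaglandin and leukotriene pathways were followed across cell classes of mouse colon tumour tissue. The 10 genes were taken as a list by symbol: Ptgs1, Ptgs2, Ptges, Hpgd, Ptger2, Ptger4, Alox5, Alox5ap, Lta4h and Ltb4r1. All 10 were found among the 55357 genes of both count matrices, each as a single entry. Single-cell RNA sequencing had been done on 2 libraries, 1 per genotype. The library labelled KO came from animals with floxed Ecm1 alleles and Villin-Cre, a recombinase driven by a promoter that is active in intestinal epithelium. The library labelled WT came from animals with the same floxed alleles and no Cre, so both libraries carry the floxed gene. The sources used here do not give the number of animals, their age or sex, or the tumour model.

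Both pathways start from arachidonic acid. Cyclooxygenases turn it into an unstable prostaglandin from which terminal synthases make prostaglandin E2 and its relatives, and a dehydrogenase inactivates these. Lipoxygenase, with its activating membrane protein, turns the same acid into leukotriene A4, which a hydrolase converts to leukotriene B4, a chemoattractant for neutrophils and other leukocytes. In the colon, prostaglandin E2 is known for its effects on epithelial growth and on immune cells through G-protein-coupled receptors.

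After filtering, 4233 cells remained under the KO label and 8262 under the WT label, with medians of 7949.5 and 2705.5 unique molecular identifiers (UMIs, counts of single captured RNA molecules) per barcode before filtering. Clusters were named from marker lists, and 6 named classes were compared. Neutrophil-like cells numbered 200 and 2238 (KO and WT), mast-like cells 62 and 259, monocyte/macrophage-like cells 518 and 1318, T-like cells 264 and 1120, epithelial-like cells 2310 and 2102, and fibroblast-like cells 116 and 12. All 10 neutrophil, 10 mast, 12 monocyte/macrophage, 10 T, 8 fibroblast and 10 epithelial markers were detected in the class that bears their name in both libraries. Markers of other cell types were found too. Fibroblast-like cells held 7 and 6 of 7 pericyte or smooth muscle markers, at a summed 8561 and 1075 per 1000000 UMIs (KO and WT). Their fibroblast markers summed to 16186 and 21720. T-like cells held all 8 innate lymphoid markers, at a summed 2917 and 2163, and natural killer markers at 1364 and 600, against 6338 and 5054 for T markers. The targeted gene Ecm1 held 2352 and 993 UMIs in epithelial-like cells, or 40.9 UMIs per 1000000 UMIs of the class (CPM) under the KO label and 33.8 CPM under the WT label. Ecm1 was thus not lower under the KO label. Which exons are floxed is not stated, so this level cannot check the deletion, and the genotypes are used below only as labels. Xist counted 103646 UMIs under the KO label against 7 under the WT label, and Ddx3y 0 against 6175, so the libraries also differ in genes that mark sex. The libraries shared 17 cell barcodes.

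Levels are given as CPM, the UMIs of a gene summed over the cells of a class per 1000000 UMIs of that class. A level is compared between classes or libraries for the same gene, never between genes, because UMI counts were not scaled for how well each transcript is captured. Intervals are exact 95% intervals for counting error only. With 1 library per genotype there is no replicate and no test, and a ratio between the libraries describes these libraries and not the genotypes.

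Of the 10 genes, 8 had their highest level in the same one of the 6 classes in both libraries. Ptgs2, Alox5ap and Ltb4r1 were highest in neutrophil-like cells, Alox5 in mast-like cells, Ptgs1 and Hpgd in monocyte/macrophage-like cells, Ptger2 in T-like cells and Ptges in fibroblast-like cells. Some of these ranks were close, with overlapping intervals. Examples are Ltb4r1 in neutrophil-like (100 to 159) and T-like cells (90.5 to 134) under the KO label. Under the WT label they include Hpgd in monocyte/macrophage-like (19.8 to 26.3) and epithelial-like cells (17.9 to 21.2), and Alox5ap in neutrophil-like (1121 to 1184) and mast-like cells (1014 to 1149). Ptger4 was highest in monocyte/macrophage-like cells under the KO label and in T-like cells under the WT label. Lta4h was highest in epithelial-like cells under the KO label and, from 12 UMIs in 12 cells, in fibroblast-like cells under the WT label.

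**Figure D1:**
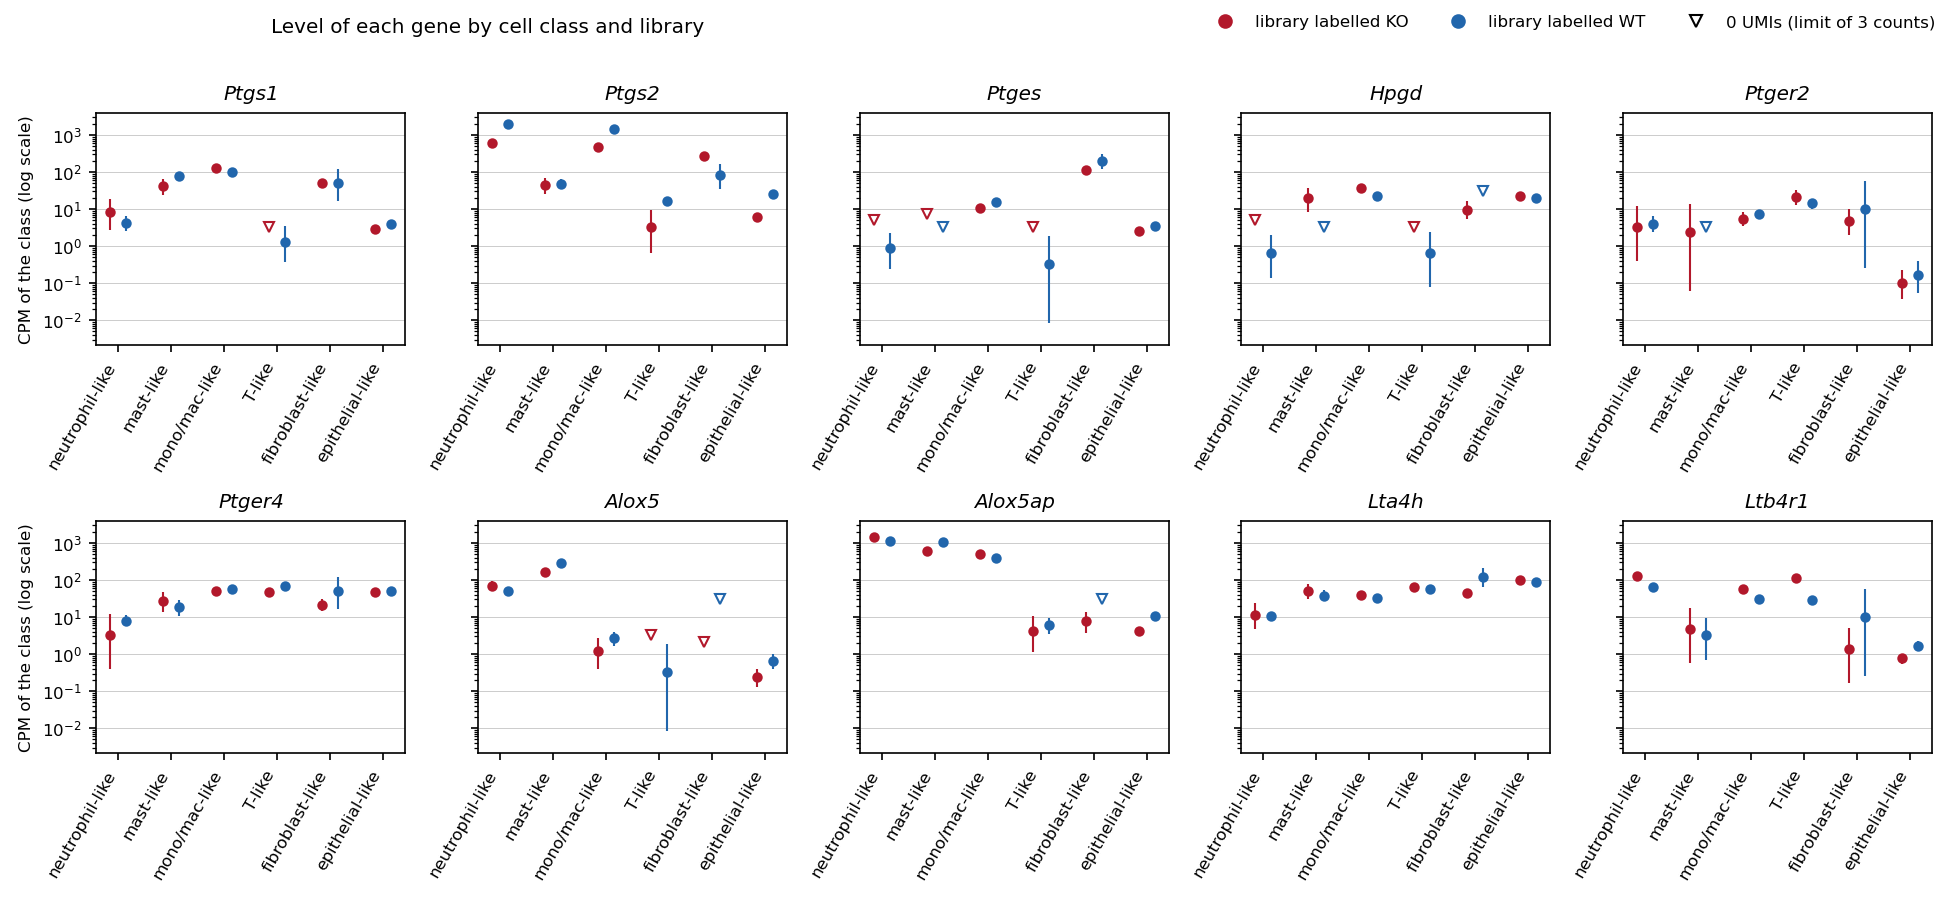
Level of each of the 10 genes in 6 cell classes, as CPM on a log scale, in the library labelled KO (red) and that labelled WT (blue). Bars are exact 95% Poisson intervals for counting error, and open triangles mark classes with 0 UMIs, drawn at the level of 3 counts. Ptgs2 stands at 590 and 2034 CPM in neutrophil-like cells, and Ltb4r1 at 111 and 28.6 CPM in T-like cells.

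Between the libraries, 32 of 50 pairs of a gene and a class had at least 50 summed UMIs and were counted. The fibroblast-like class was left out of these counts because the library labelled WT held 12 such cells. A level at least 2-fold lower in the library labelled KO was found in 6 pairs and one at least 2-fold higher in 1 pair. Ptgs2 made up 4 of the 6 lower pairs.

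In neutrophil-like cells, 5 of the 10 genes were counted, 1 of them (Ptgs2) was at least 2-fold lower and 0 were at least 2-fold higher. Of the 4743 genes counted in that class, 14% were at least 2-fold lower and 3.84% at least 2-fold higher. The median log2 ratio was 0.37 over the 5 genes and -0.17 over all genes.
In mast-like cells, 5 of the 10 were counted and 0 passed 2-fold in either direction, beside 11.2% lower and 15.8% higher of all 3444 genes. Their median log2 ratio was -0.81, against 0.08 over all genes.
In monocyte/macrophage-like cells, 9 of the 10 were counted, 1 (Ptgs2) was lower and 0 were higher, beside 6.29% lower and 5.23% higher of all 9824 genes. The median log2 ratio was 0.27 over the 9 and -0.01 over all genes.
In T-like cells, 5 were counted, 1 (Ptgs2) was lower and 1 (Ltb4r1) was higher, beside 9.08% lower and 2.57% higher of all 7436 genes. The median log2 ratio was 0.18 over the 5 and -0.11 over all genes.
In epithelial-like cells, 8 were counted, 3 (Ptgs2, Alox5ap and Ltb4r1) were lower and 0 were higher, beside 7.4% lower and 2.75% higher of all 15518 genes. The median log2 ratio was -0.45 over the 8 and -0.02 over all genes. The 10 neutrophil markers summed to 141 and 898 CPM in these epithelial-like cells, and with the RNA expected from neutrophil-like and monocyte/macrophage-like cells subtracted the ratios of Ptgs2 and Alox5ap were 0.592 and 0.627, so that Ltb4r1 alone of the 3 remained past 2-fold. The genes that did not reach 50 UMIs in a class are described by their levels only.

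**Figure D2:**
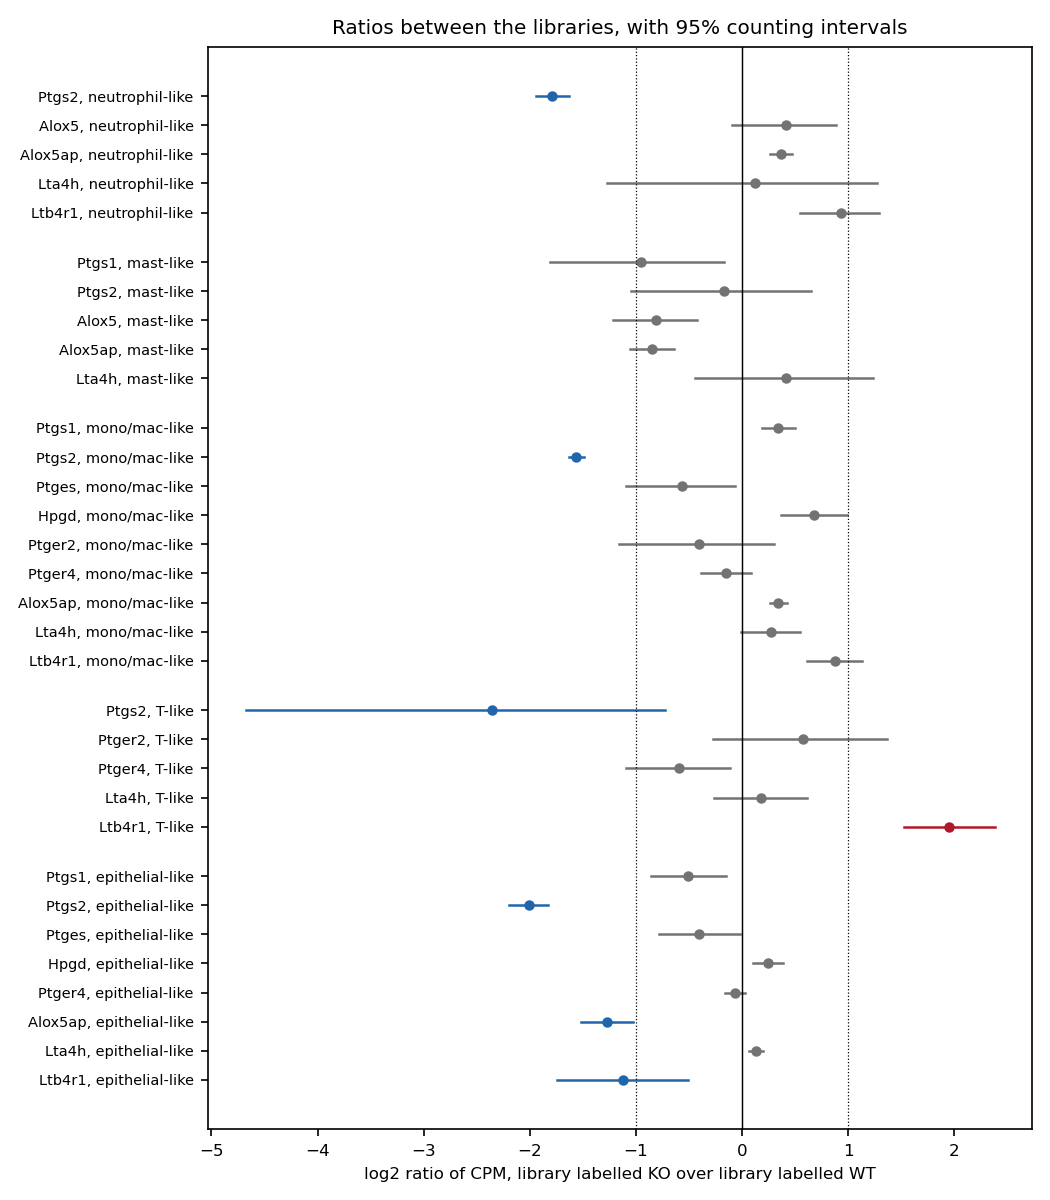
Ratio of CPM between the libraries (KO over WT, log2 scale) for the 32 pairs of a gene and a class with at least 50 summed UMIs. Points are the ratios, bars their 95% counting intervals and dotted lines mark 2-fold, with lower pairs in blue, the higher pair in red and the rest in grey. Ptgs2 lies left of the 2-fold line in 4 of its 5 classes, and Ltb4r1 in T-like cells lies right of it.

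Ptgs2 (ENSMUSG00000032487) encodes the inducible cyclooxygenase, which makes prostaglandin H2 in stimulated cells. In neutrophil-like cells 357 UMIs gave 590 CPM (530 to 654) under the KO label, and 9166 UMIs gave 2034 CPM (1993 to 2076) under the WT label. The ratio was 0.290 (0.260 to 0.322). In monocyte/macrophage-like cells it held 2020 UMIs and 481 CPM under the KO label and 12333 UMIs and 1418 CPM under the WT label, a ratio of 0.339 (0.323 to 0.355). Both myeloid classes thus held less Ptgs2 under the KO label, and the intervals of the libraries did not overlap in either. The 10 neutrophil markers summed to 1025 and 2136 CPM in the monocyte/macrophage-like cells, and with the RNA expected from neutrophil-like and epithelial-like cells (set by S100a8 and S100a9, and by Epcam and Krt8) subtracted the ratio there was 0.341. These classes also held most of the gene's UMIs. Under the KO label 63.3% of all Ptgs2 UMIs lay in monocyte/macrophage-like and 11.2% in neutrophil-like cells, and under the WT label 52.7% and 39.1%.

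The lower level was present in each myeloid cluster with enough cells. The larger neutrophil-like cluster, led by Retnlg and S100a9, held 188 and 2041 cells and Ptgs2 at 591 and 2091 CPM (KO and WT). The smaller, led by Ccl3 and Il36g, held 12 and 197 cells and 553 and 1164 CPM. The monocyte/macrophage-like cluster led by Ccl24 and Chil3 (252 and 950 cells) stood at 958 and 2172 CPM, and that led by Apoe and C1qa (266 and 368 cells) at 169 and 442 CPM. Ptgs2 was therefore higher in the Ccl24 and Chil3 cluster than in the Apoe and C1qa cluster of the same library, in both libraries. The ratio was 0.441 in the first and 0.382 in the second, and the class ratio lay below both, with the Ccl24 and Chil3 cluster making up more of the class under the WT label. The 41 and 373 conventional dendritic-like cells followed the same direction, at 40.5 CPM (21.5 to 69.2) and 373 CPM (349 to 398).

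The difference showed in the number of Ptgs2-positive cells and in the UMIs per positive cell. With every cell thinned to 1000 UMIs, which left out 6 and 104 shallower cells, 37.6% of neutrophil-like cells under the KO label (30.8% to 44.9%) and 69.5% under the WT label (67.5% to 71.4%) held a Ptgs2 UMI. Positive cells held 1.62 and 3.01 UMIs on average. Before thinning the shares were 57.5% and 78.5%, at median depths of 2838.5 and 1912 UMIs, so the deeper cells were those with the lower share. Cells with 5 or more UMIs after thinning made up 0.515% and 13.6% of the class. Among monocyte/macrophage-like cells, 25.8% (21.9% to 29.9%) and 50.7% (48.0% to 53.5%) were positive after thinning, with 2.34 and 3.47 UMIs per positive cell. Their unthinned shares were 47.3% and 72.5% at median depths of 6903 and 5221.5 UMIs. In T-like cells, a lineage that largely lacks the gene, 0.389% and 0.833% were positive after thinning, from 1.14% and 2.5% unthinned, at median depths of 2974 and 2176.5 UMIs.

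**Figure D3:**
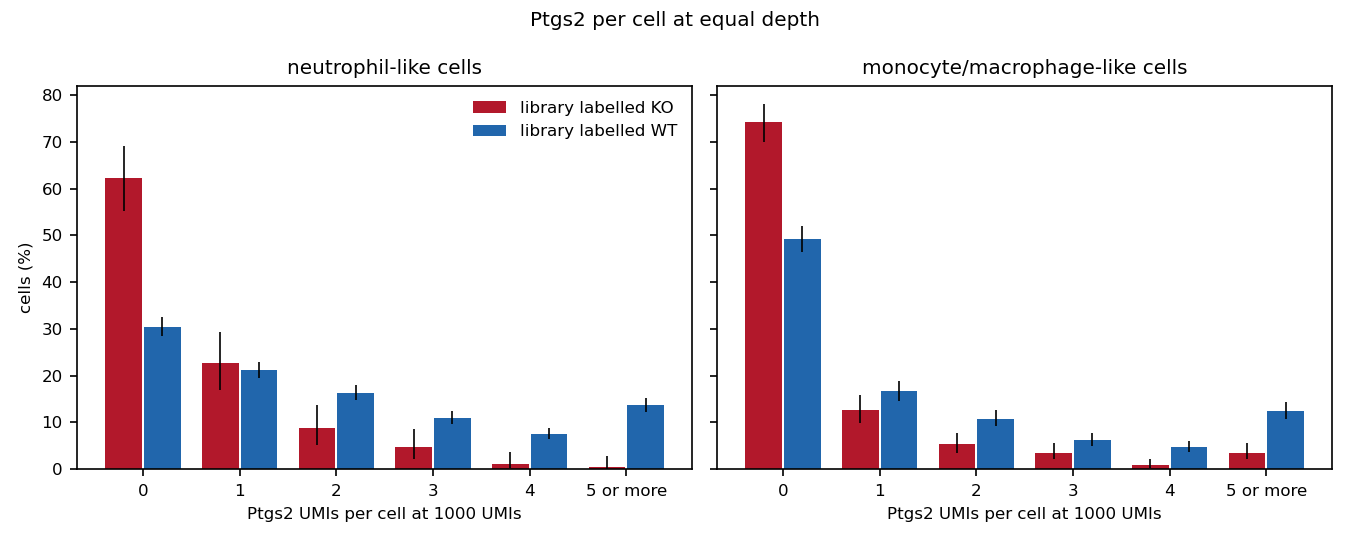
Share of cells by their number of Ptgs2 UMIs, with every cell thinned to 1000 UMIs, in neutrophil-like cells (left, 194 and 2134 cells) and monocyte/macrophage-like cells (right, 485 and 1295 cells) of the library labelled KO (red) and that labelled WT (blue). Bars start at 0 and black lines are exact 95% binomial intervals. Cells with 0 UMIs make up 62.4% and 30.5% of neutrophil-like cells and 74.2% and 49.3% of monocyte/macrophage-like cells.

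In epithelial-like and T-like cells Ptgs2 was low, and RNA of neutrophils differed between the libraries in the same direction. Epithelial-like cells held 6.17 CPM under the KO label and 24.9 CPM under the WT label, a ratio of 0.248 (0.218 to 0.282), and the interval lay below 1 in 5 of the 8 epithelial-like clusters that could be compared. Under the WT label 8.29 CPM was expected from neutrophil-like and 9.01 CPM from monocyte/macrophage-like RNA (the latter set by C1qa and C1qb). The latter may be too large, as given below for T-like cells. Once the expected RNA of both classes was subtracted in each library, epithelial Ptgs2 was 4.48 and 7.57 CPM. A few cells carried much of what there was, since 61.7% of the epithelial UMIs under the KO label and 21.1% under the WT label lay in 5 cells. After thinning, 0.624% and 1.86% of epithelial-like cells held a Ptgs2 UMI (4.2% and 12.9% unthinned, at 19791.5 and 9983.5 UMIs per cell). The shares of T-like cells were 0.389% and 0.833%.

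In T-like cells 7 of the 10 neutrophil markers were detected under the KO label (Csf3r, Cxcr2 and Mmp8 were at 0) and all 10 under the WT label, at a summed 229 and 596 CPM. T-like cells held 3 Ptgs2 UMIs under the KO label and 49 under the WT label, 3.19 and 16.3 CPM. The ratio of 0.196 (0.0390 to 0.607) therefore rests on 3 counts, and 53.1% of the 49 UMIs lay in 5 cells. In the T-like cells of the library labelled WT the Ptgs2 expected from RNA of other classes was at least as much as that observed. It was 4.68 CPM from neutrophil-like, 11.8 CPM from monocyte/macrophage-like and 0.624 CPM from epithelial-like cells, and nothing was left after subtraction. The monocyte/macrophage-like part took the level of the whole class, here and in other classes. C1qa, which helped to set it, led the cluster with the lower Ptgs2 level, so this part may be too large. Mast-like cells held 43.6 and 49.0 CPM, a ratio of 0.889 (0.484 to 1.57), but 83.3% of the 18 UMIs under the KO label lay in 5 cells. Subtracting the expected RNA of other classes left 37.5 and 0 CPM, and without cells that held an Epcam UMI the levels were 8.76 and 57.6 CPM from 1 and 43 UMIs, so no order of the libraries is read from this class. Fibroblast-like cells held 274 CPM under the KO label from 394 UMIs, of which 59.4% lay in 5 cells, and 81.9 CPM from 8 UMIs under the WT label. The fibroblast-like class was the only one of the 6 in which the level under the KO label lay above that under the WT label, and with 12 cells in the latter no comparison was made.

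The 250 bases before the annotated start of Ptgs2 and the first 30 bases after it are shown with those of Ptgs1, the constitutive cyclooxygenase gene, because their enzymes make the same product while their levels peaked in different cells. The sequences are RefSeq's, build GRCm38.p6 (the counts were made on another build), at chr1:150099781-150100060 on the plus strand for Ptgs2 and chr2:36230176-36230455 on the plus strand for Ptgs1. Capitals mark matches to TTGCGCAA, a C/EBP motif, and to TGACGT and CACGTG, the core of a cAMP response element and an E-box, searched on both strands.
Ptgs2: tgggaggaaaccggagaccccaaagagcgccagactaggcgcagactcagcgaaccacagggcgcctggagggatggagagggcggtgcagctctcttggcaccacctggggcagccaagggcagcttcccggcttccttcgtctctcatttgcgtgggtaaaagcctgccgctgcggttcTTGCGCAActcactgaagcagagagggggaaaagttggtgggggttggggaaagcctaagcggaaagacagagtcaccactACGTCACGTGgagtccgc
Ptgs1: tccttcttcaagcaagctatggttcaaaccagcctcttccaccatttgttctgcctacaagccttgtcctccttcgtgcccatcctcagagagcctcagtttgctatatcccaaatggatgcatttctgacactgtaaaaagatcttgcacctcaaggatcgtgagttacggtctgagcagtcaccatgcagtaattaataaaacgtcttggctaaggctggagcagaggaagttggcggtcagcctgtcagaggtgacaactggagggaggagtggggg
In the Ptgs2 window TTGCGCAA starts at position -69 from the annotated start. The reverse complement of TGACGT starts at 13 and overlaps CACGTG, which starts at 17, so that the pair form a single run of capitals. The Ptgs1 window holds none of the 3. Over the 300 bases held for each gene, 9 of the 10 genes had an entry, Alox5ap being without one, and Ptgs2 was the only one of the 9 with any of these 3 motifs. TATAAA was searched too and matched Hpgd alone, at position 5. Of 32851 promoters of the same length, 0.183% held TTGCGCAA, 7.51% TGACGT, 7.15% CACGTG and 13.6% TATAAA. A match describes letters and not a site in use. Across the 23 clusters with at least 50 cells over both libraries, the genes whose levels ran most like those of Ptgs2 were Cebpb (Pearson r = 0.95), which encodes a C/EBP factor, Jdp2 (0.94) and Nlrp3 (0.93). The clusters share libraries and depth, and these r values are descriptions.

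Ptgs1 (ENSMUSG00000047250) showed another pattern. Monocyte/macrophage-like cells held 129 CPM (119 to 141) under the KO label and 102 CPM (95.4 to 109) under the WT label. Almost all of this lay in the Apoe and C1qa cluster, at 209 and 221 CPM, while the Ccl24 and Chil3 cluster stood at 7.22 and 9.99 CPM. The class ratio of 1.27 (1.14 to 1.41) was thus not found in either cluster, whose ratios were 0.947 and 0.723. Ptgs1 and Ptgs2 were therefore highest in different monocyte/macrophage-like clusters. Mast-like cells held 41.2 and 79.6 CPM of Ptgs1, fibroblast-like cells 51.4 and 51.2 CPM (74 and 5 UMIs), and endothelial-like cells 34.5 CPM (36 UMIs) under the KO label. Epithelial-like cells stood at 2.85 and 4.05 CPM, neutrophil-like cells at 8.26 and 4.22 CPM, and T-like cells at 0 UMIs under the KO label, which allows up to 3.19 CPM (3 counts), and at 1.33 CPM under the WT label. The most alike genes over the clusters were Hebp1 (r = 0.91), Itga9 (0.88) and Plau (0.86).

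Ptges (ENSMUSG00000050737) encodes the inducible synthase that makes prostaglandin E2 from the cyclooxygenase product. Its highest levels were in fibroblast-like cells, 116 CPM (99 to 135) from 167 UMIs under the KO label and 194 CPM (117 to 304) from 19 UMIs under the WT label, of which 94.7% lay in 5 cells. Monocyte/macrophage-like cells held 10.5 and 15.5 CPM, a ratio of 0.675 (0.469 to 0.954), mainly in the Ccl24 and Chil3 cluster at 23.5 and 22.0 CPM, where the ratio was 1.07 (0.720 to 1.55). The Apoe and C1qa cluster held 5 and 27 UMIs, 1.97 and 7.12 CPM, a ratio of 0.276 (0.0831 to 0.728). Neutrophil-like cells, which had the highest Ptgs2 level in CPM of the classes compared, held 0 and 4 Ptges UMIs, and mast-like cells held none in either library. Ptges and Ptgs2 were thus both present in the Ccl24 and Chil3 cluster and in fibroblast-like cells. Epithelial-like cells stood at 2.57 and 3.40 CPM. Ereg (r = 0.93) and Vcan (0.92) ran most like Ptges over the clusters.

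Hpgd (ENSMUSG00000031613) encodes the dehydrogenase that inactivates prostaglandins. In epithelial-like cells it held 1330 UMIs and 23.1 CPM under the KO label and 573 UMIs and 19.5 CPM under the WT label, a ratio of 1.19 (1.08 to 1.31). These cells held 87.6% and 71.8% of all Hpgd UMIs. Within the epithelium it was uneven. The cluster led by Muc3 and Adh1 stood at 74.2 and 60.4 CPM, that led by Saa1 and Clca4b at 47.9 and 54.4 CPM and the goblet-like cluster led by Zg16 at 41.3 and 64.9 CPM. The cluster led by Pnliprp2 and Mt4, the largest epithelial one with 693 and 569 cells, stood at 5.79 and 3.43 CPM. The same 3 clusters were highest in both libraries, among those with at least 20 cells in each. Monocyte/macrophage-like cells held 36.6 and 22.9 CPM, a ratio of 1.60 (1.29 to 1.99), and the Apoe and C1qa cluster held 150 of the 154 UMIs under the KO label and 156 of the 199 under the WT label, at 59.0 and 41.1 CPM. Under the KO label 37.7% of these UMIs lay in 5 cells. The Ccl24 and Chil3 cluster, where Ptgs2 was highest, stood at 2.41 and 8.77 CPM of Hpgd. Cryl1 (r = 0.90), Smim24 (0.89) and Abcc3 (0.87) ran most like Hpgd.

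**Figure D4:**
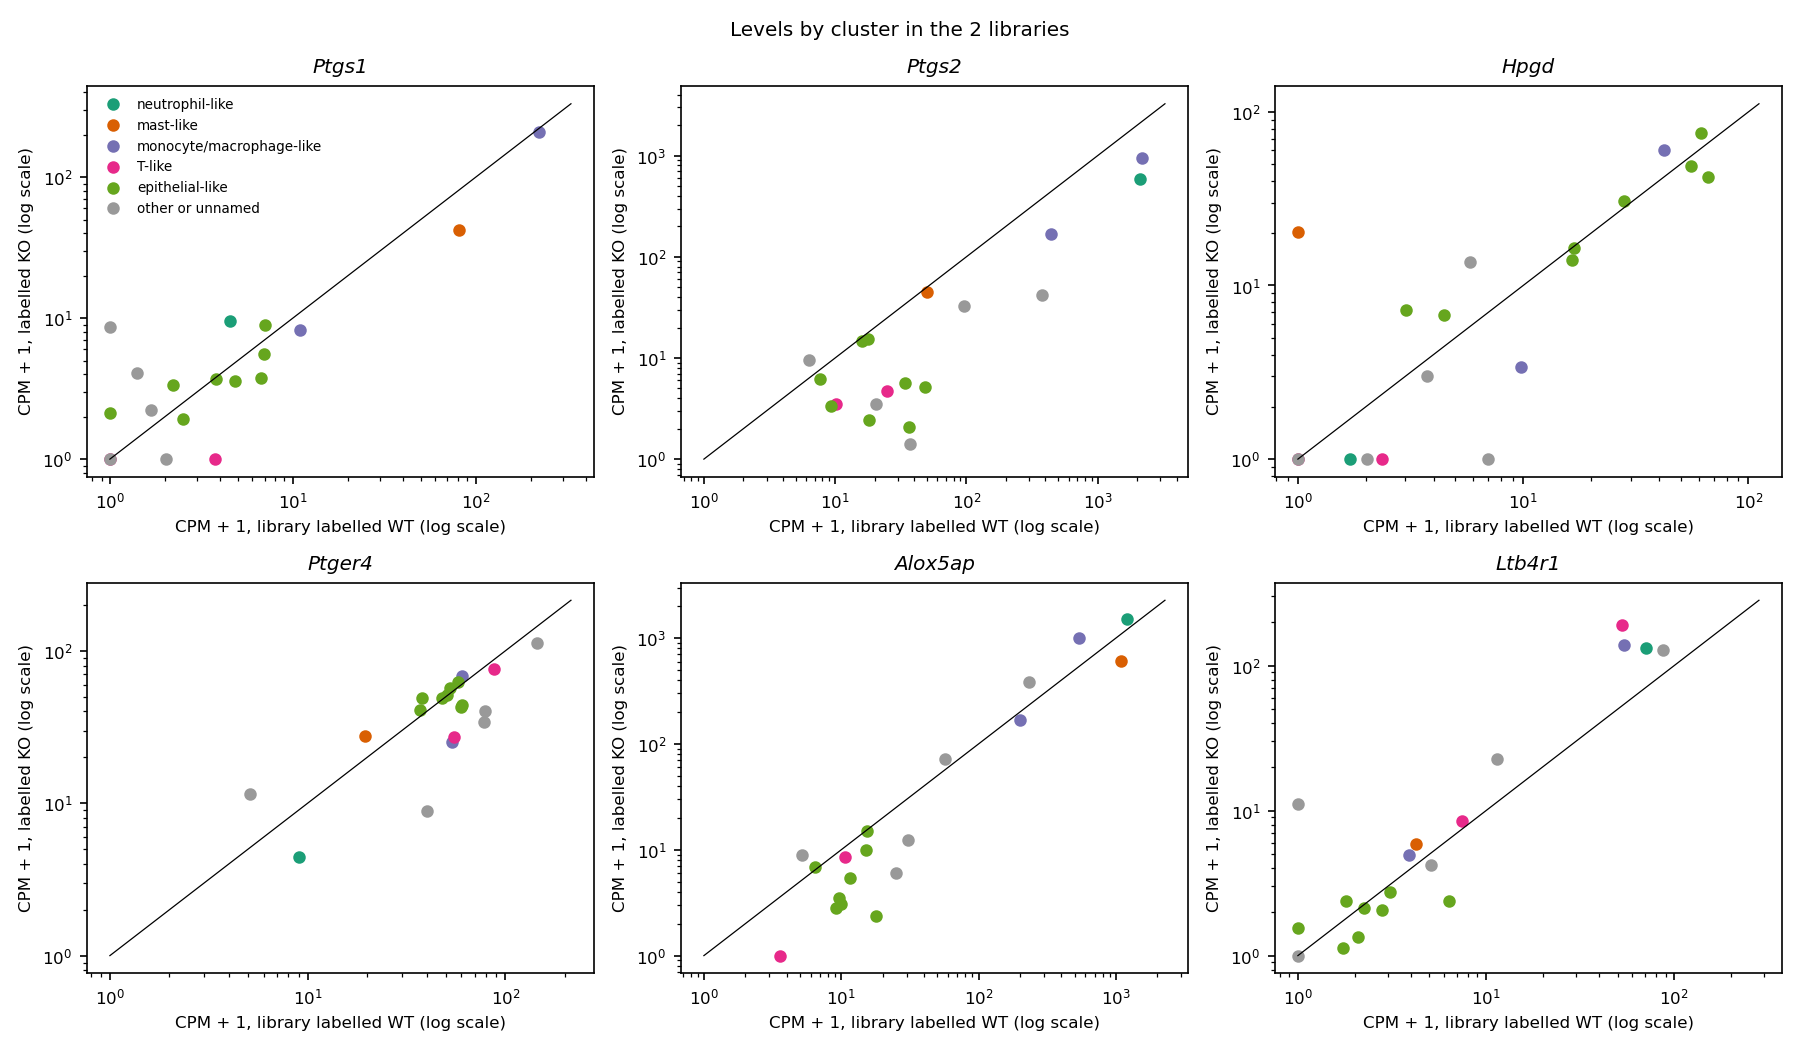
Level of 6 of the genes in each cluster with at least 20 cells in both libraries, as CPM + 1 on log axes, library labelled WT across and library labelled KO up, with the line of equality. Points are clusters, coloured by class. Ptgs2 lies below the line in both monocyte/macrophage-like clusters (958 against 2172 CPM and 169 against 442 CPM), and Ltb4r1 above it in a T-like cluster (188 against 52.0 CPM).

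The prostaglandin E2 receptors Ptger2 and Ptger4 encode EP2 and EP4, both of which raise cAMP. Ptger2 (ENSMUSG00000037759) was the least counted of the 10, with 72 and 195 UMIs per library. T-like cells held 21.3 CPM (13 to 32.9) under the KO label and 14.3 CPM (10.4 to 19.3) under the WT label, and most of these UMIs lay in the cluster led by Penk, Tnfrsf4 and Ctla4, at 31.7 and 23.3 CPM. Monocyte/macrophage-like cells held 5.47 and 7.24 CPM and epithelial-like cells 0.104 and 0.170 CPM. The ratios of 1.49 (0.829 to 2.58) in T-like and 0.756 (0.447 to 1.24) in monocyte/macrophage-like cells had intervals that include 1.

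Ptger4 (ENSMUSG00000039942) was spread more evenly. Epithelial-like cells held 48.0 and 50.3 CPM, a ratio of 0.954 (0.896 to 1.02), and monocyte/macrophage-like cells 50.2 and 55.6 CPM, a ratio of 0.902 (0.764 to 1.06). T-like cells held 46.8 CPM (34.0 to 62.9) under the KO label and 70.6 CPM (61.4 to 80.7) under the WT label, a ratio of 0.664 (0.468 to 0.922). Conventional dendritic-like cells stood higher, at 112 and 143 CPM, and neutrophil-like cells lower, at 3.3 and 7.99 CPM. In the Ccl24 and Chil3 cluster, where Ptgs2 was highest among the monocyte/macrophage-like cells, Ptger4 stood at 24.1 and 52.8 CPM, a ratio of 0.456, while in the Apoe and C1qa cluster it stood at 67.3 and 59.3 CPM, a ratio of 1.13. The near-equal class levels thus held 1 cluster that was lower and 1 whose interval includes 1. Eipr1 (r = 0.83), Trim36 (0.82) and Ift52 (0.81) ran most like it.

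**Figure D5:**
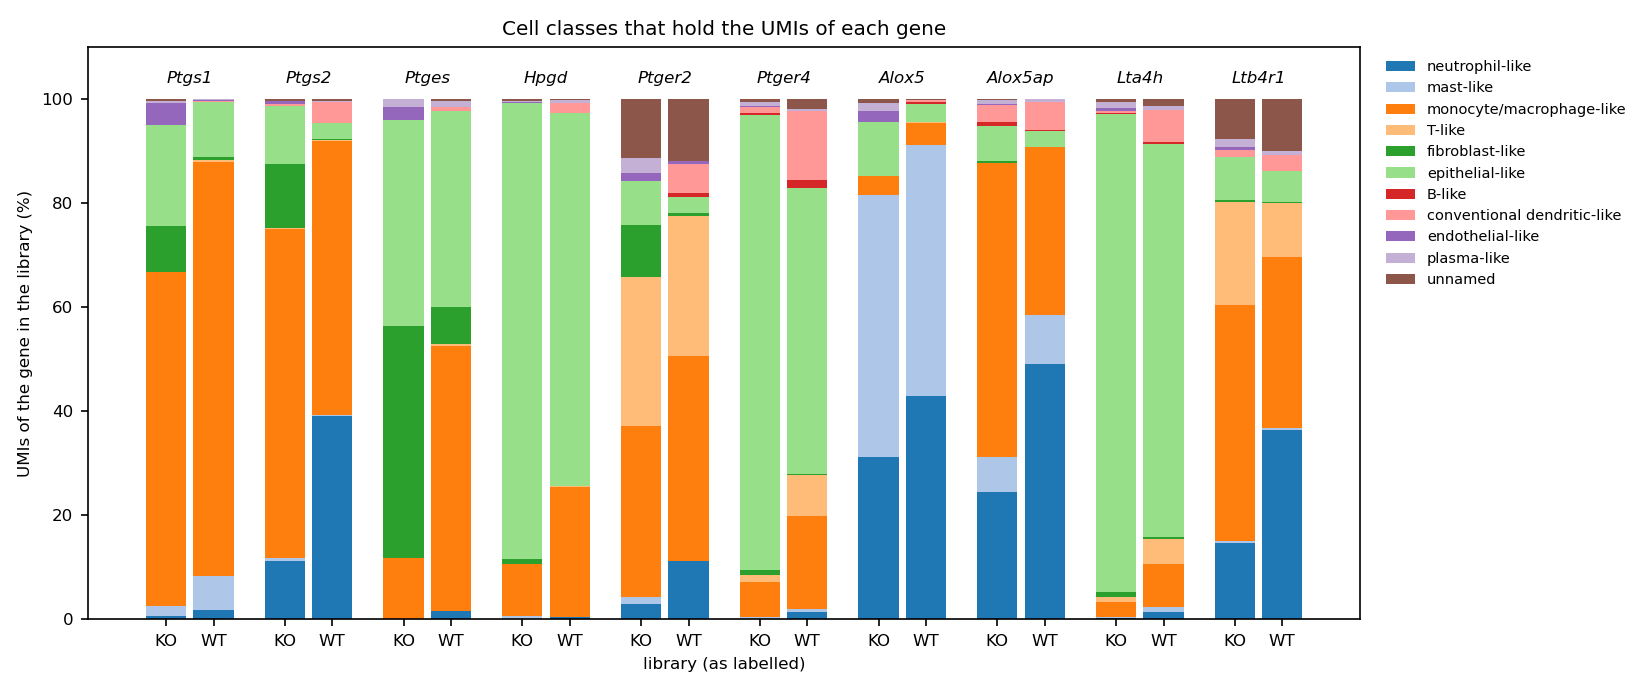
Share of all UMIs of each gene that each cell class held, in percent, for the library labelled KO and that labelled WT. Colours are classes, and each bar sums to 100 over the filtered cells. Lta4h lies mostly in epithelial-like cells (92.0% and 75.6%), and Alox5 mostly in mast-like (50.4% and 48.4%) and neutrophil-like cells (31.1% and 42.9%). The shares also follow the number of cells of each class in the library.

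Alox5 (ENSMUSG00000025701) encodes 5-lipoxygenase, the enzyme that starts leukotriene synthesis. It was found almost only in mast-like cells, at 165 CPM (128 to 209) from 68 UMIs under the KO label and 289 CPM (255 to 326) from 265 UMIs under the WT label, and in neutrophil-like cells, at 69.4 and 52.1 CPM. Monocyte/macrophage-like cells held 1.19 and 2.64 CPM, epithelial-like cells 0.243 and 0.646 CPM, T-like cells 0 and 1 UMI and fibroblast-like cells 0 UMIs. The ratio was 1.33 (0.934 to 1.85) in neutrophil-like cells and 0.570 (0.430 to 0.747) in mast-like cells. After thinning, 13.6% and 24.7% of mast-like cells held an Alox5 UMI (51.6% and 53.3% unthinned, at 3623.5 and 2413 UMIs per cell), and 0.206% and 0.0772% of monocyte/macrophage-like cells. Rgs18 (r = 0.91), Adgrg3 (0.90) and Mcpt-ps1 (0.87) ran most like it over the clusters.

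Alox5ap (ENSMUSG00000060063) encodes the membrane protein that presents arachidonic acid to 5-lipoxygenase. Neutrophil-like cells held 1487 CPM (1391 to 1587) under the KO label and 1152 CPM (1121 to 1184) under the WT label, a ratio of 1.29 (1.2 to 1.39). In monocyte/macrophage-like cells, which had few Alox5 UMIs, it stood at 495 and 390 CPM, a ratio of 1.27 (1.2 to 1.34). The Ccl24 and Chil3 cluster had a ratio of 1.85 and the Apoe and C1qa cluster one of 0.842. Mast-like cells held 601 and 1080 CPM, a ratio of 0.556 (0.482 to 0.640). Alox5ap thus lay above the WT level in neutrophil-like cells and in the Ccl24 and Chil3 cluster, where Ptgs2 lay below it. In the Apoe and C1qa cluster both genes lay below the WT level. Epithelial-like cells stood at 4.33 and 10.4 CPM, a ratio of 0.415 (0.349 to 0.492). With the expected free RNA subtracted the epithelial ratio was 0.627 and the levels 2.05 and 3.27 CPM, and the neutrophil markers in these cells differed as given above. Tyrobp (r = 0.93), Lst1 (0.93) and Pilrb2 (0.93) ran most like it.

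Alox5, Alox5ap and Ptgs1 were lower in mast-like cells under the KO label, and epithelial RNA in that class differed between the libraries too. All 10 epithelial markers were detected in the mast-like cells of both libraries, at a summed 6700 CPM under the KO label and 422 CPM under the WT label, and Epcam alone stood at 1609 and 59.9 CPM. Without cells that held an Epcam UMI, which left 33 and 226 mast-like cells, Alox5 stood at 289 and 299 CPM, a ratio of 0.968 (0.650 to 1.40). Alox5ap then stood at 1156 and 1096 CPM, a ratio of 1.05 (0.871 to 1.27). Ptgs1 stood at 70.1 and 79.0 CPM from 8 and 59 UMIs, a ratio of 0.887 (0.366 to 1.86). This way of choosing mast-like cells was added after the data had been seen. With all mast-like cells kept and expected free RNA subtracted, the ratios were 0.571 for Alox5, 0.563 for Alox5ap and 0.501 for Ptgs1. That subtraction did not rescale the levels for the RNA removed. The cause of the lower levels was not tested.

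Lta4h (ENSMUSG00000015889) encodes the hydrolase that makes leukotriene B4. Epithelial-like cells held 5707 UMIs and 99.2 CPM (96.7 to 102) under the KO label and 2667 UMIs and 90.7 CPM (87.3 to 94.2) under the WT label, a ratio of 1.09 (1.04 to 1.15). T-like cells held 63.9 and 56.3 CPM, mast-like cells 50.9 and 38.1 CPM and monocyte/macrophage-like cells 40.4 and 33.4 CPM. In mast-like cells under the KO label, 49.4 CPM was the level expected from epithelial RNA, and with expected free RNA subtracted the mast-like levels were 1.27 and 34.5 CPM. What was left was not rescaled for the RNA removed, so the level under the KO label may be too low. Neutrophil-like cells stood at 11.6 CPM (4.65 to 23.8) and 10.7 CPM (7.85 to 14.1). Neutrophil-like cells thus had the lowest observed levels of the 6 classes in both libraries, but under the KO label mast-like cells were lower after the subtraction, at 1.27 against 8.27 CPM. Rpe (r = 0.93), Copg2 (0.92) and Cs (0.91) ran most like it.

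Ltb4r1 (ENSMUSG00000046908) encodes BLT1, the high-affinity leukotriene B4 receptor of leukocytes. Its level lay above the WT level in the 3 leukocyte classes where it was counted. Neutrophil-like cells held 77 UMIs and 127 CPM (100 to 159) under the KO label and 301 UMIs and 66.8 CPM (59.5 to 74.8) under the WT label, a ratio of 1.90 (1.46 to 2.45). In monocyte/macrophage-like cells 57.1 and 31.1 CPM gave a ratio of 1.83 (1.53 to 2.19), and the Ccl24 and Chil3 cluster held nearly all of it, at 138 and 53.0 CPM, against 3.93 and 2.90 CPM in the Apoe and C1qa cluster. T-like cells held 104 UMIs and 111 CPM (90.5 to 134) under the KO label and 86 UMIs and 28.6 CPM (22.9 to 35.4) under the WT label, the widest difference at a ratio of 3.87 (2.88 to 5.21).

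In T-like cells the Ltb4r1 UMIs lay in the cluster led by Penk, Tnfrsf4 and Ctla4 (137 and 524 cells), at 188 and 52.0 CPM, a ratio of 3.62. The cluster led by Ccl5, Xcl1 and Gzma (127 and 596 cells) held 7.45 and 6.48 CPM. An unnamed cluster led by Il17a and Trdc (61 and 277 cells), kept out of the T-like class, held 126 and 85.8 CPM, and with it the class ratio was 2.68 (2.12 to 3.38). Under the KO label 33.7% of the T-like UMIs lay in 5 cells, and 17.4% under the WT label. Without the 5 richest cells of each library the ratio was 3.22. After thinning, 5.84% (3.3% to 9.44%) and 2.78% (1.88% to 3.94%) of T-like cells held a UMI, from 19.3% and 6.34% unthinned, and the ratio was 2.17. Epithelial-like cells, which largely lack the receptor, stood at 0.0446% and 0.401% after thinning. Epithelial-like cells held 44 and 49 UMIs, 0.765 and 1.67 CPM, a ratio of 0.459 (0.298 to 0.704). Reads of Ltb4r1 can fall on the adjacent gene Ltb4r2, which held 11 and 17 UMIs, and how the authors counted such reads, and whether by strand, is not stated, so the assignment is uncertain. Stx11 (r = 0.84), Dgat1 (0.83) and Emb (0.81) ran most like Ltb4r1.

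Of 40 other genes of the pathways, 39 were found as single entries, Dpep2 being the exception. In neutrophil-like cells 8 were counted, 2 were at least 2-fold lower under the KO label and 0 higher, with a median log2 ratio of -0.23. In mast-like cells it was 2 lower and 1 higher of 7, in monocyte/macrophage-like cells 1 lower and 0 higher of 19, in T-like cells 1 lower and 2 higher of 10, and in epithelial-like cells 4 lower and 0 higher of 24. Their medians were 0.04, 0.19, 0.16 and 0.23. Of all genes counted, 14% were lower and 3.84% higher in neutrophil-like cells, and 11.2% and 15.8% in mast-like cells. The shares lower and higher were 6.29% and 5.23% in monocyte/macrophage-like, 9.08% and 2.57% in T-like and 7.4% and 2.75% in epithelial-like cells.

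Fpr2, a formyl peptide receptor that also binds lipoxin, was lower in 3 of the 4 classes in which Ptgs2 was. Neutrophil-like cells held it at 173 and 390 CPM (ratio 0.445) and monocyte/macrophage-like cells at 26.4 and 67.1 CPM (0.393). Epithelial-like cells held it at 0.435 and 1.43 CPM (0.304), from 25 and 42 UMIs. Under the WT label that epithelial-like level was no higher than the level expected from neutrophil RNA, as given below, so no shared epithelial difference is read from it. Ggt5, which cleaves leukotriene C4, was counted at 16.5 and 41.5 CPM among neutrophil-like cells. Hpgds, the synthase of prostaglandin D2 in blood cells, stood at 84.8 and 206 CPM in mast-like cells, where epithelial RNA differed as given above, and at 6.78 and 14.5 CPM in epithelial-like cells. Abcc1, an exporter of leukotriene C4, stood at 38.8 and 110 CPM in mast-like cells, and Mgst3, a membrane glutathione transferase, at 150 and 18.5 CPM. Mgst3 stood at 303 CPM in epithelial-like cells under the KO label, and Epcam and Krt8 in the mast-like cells of that library reached 49.7% of their epithelial level, against 3.26% under the WT label. Expected epithelial RNA in the mast-like class is thus of the size of its Mgst3 level.

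In epithelial-like cells Ggt1, another gamma-glutamyl transferase, was at 0.922 and 11.4 CPM, a ratio of 0.0811 (0.0595 to 0.109). Cyp4f18, whose product oxidises leukotriene B4, stood at 0.887 and 4.05 CPM there and at 238 and 338 CPM in neutrophil-like cells, its highest class. Fpr2, Ggt1 and Cyp4f18 were low in epithelial-like cells of a library with fewer neutrophil markers in them, as given above. In those cells S100a8 and S100a9 reached 0.0617% and 0.408% of their neutrophil-like level (KO and WT). Ggt1 stood at only 14.9 and 13.1 CPM in neutrophil-like cells themselves, near its epithelial-like level under the WT label. Under the WT label, 0.408% of 13.1 CPM lies far below the 11.4 CPM of Ggt1 in epithelial-like cells. The same share of 338 CPM lies below the 4.05 CPM of Cyp4f18, while that of 390 CPM lies above the 1.43 CPM of Fpr2. The genes thus differ in this respect, and the part of neutrophil RNA in these epithelial-like levels was not tested. Among T-like cells Cysltr1, a receptor for cysteinyl leukotrienes, stood at 12.8 and 25.6 CPM, a ratio of 0.498 (0.247 to 0.922). Cbr1, a carbonyl reductase, stood at 31.9 and 15.0 CPM in T-like cells and Ptgr2, a prostaglandin reductase, at 27.7 and 13.6 CPM. Cysltr2, the other cysteinyl leukotriene receptor, was highest in T-like cells, at 40.5 and 76.6 CPM. Ptges3, a chaperone partner also described as a prostaglandin E synthase, was highest in epithelial-like cells at 450 and 478 CPM. Slco2a1, the transporter that takes up prostaglandins, was highest in endothelial-like cells at 542 CPM under the KO label and 507 CPM in 14 cells under the WT label. Ptgir, the prostacyclin receptor, stood at 18.7 CPM in fibroblast-like cells under the KO label, from 27 UMIs, and at 0 UMIs in the 12 such cells under the WT label.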

How the data were processed

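Each of the 2 libraries had 1 deposited matrix of whole UMI counts per gene and barcode, which the authors made with Cell Ranger 7.2.0, per the file headers. The genome build was GRCm39, per the submitters' processing notes. The sources used here give neither the annotation release nor how cells were called, and the protocol in the labels describes a bulk, random-primed library rather than a single-cell one. The matrices held 4896 and 9512 barcodes and 75024663 and 59189995 UMIs (KO and WT).

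A barcode was kept if it had 200 genes or more and less than 20% of its UMIs on mitochondrial genes. Scrublet's automatic threshold marked 0.0456% and 3.64%, the first of which is no working call, so the highest-scoring barcodes at 0.8% per 1000 were removed (154 and 633). Counts were scaled to 10000 per cell, log-transformed, and clustered together (2000 variable genes, 30 components, 15 neighbours, Leiden resolution 1, seed 0) with scanpy 1.11.5, igraph 0.11.9, numpy 2.4.6 and scipy 1.17.1 under Python 3.11.15. The 10 members and the pathway genes were left out of the variable genes. The 24 clusters took names from 22 marker lists (at least 3 markers in 10% of cells).

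Counts were summed per class and library. Ratios of CPM were taken where at least 50 UMIs and 50 cells per library were present, with a conditional binomial 95% interval. Free RNA expected in a class was each source class's level times the summed CPM of 2 of its markers in the class over that in the source (S100a8 and S100a9, C1qa and C1qb, Epcam and Krt8). Each source was taken at the level of its whole class. Expected levels were subtracted from the observed CPM and the rest was not rescaled, so a class with much foreign RNA keeps levels that are too low. The expected level is therefore uncertain for a gene that differs between the clusters of a source, as Ptgs2 did. Intervals and limits cover counting error only. The ratio computation was tested on simulated data. The members and lists were chosen with earlier results of these data known. All 10 members are named, with the 3 genes most alike over the clusters by Pearson's r of log2(CPM + 10) where a member had at least 500 UMIs (1 such gene is not reported here), and the pathway genes past 2-fold or highest in their list. In all, 15 alternatives were planned and 2 added after the data were seen. Promoters came from RefSeq.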

Additional observations from a re-analysis of the deposited data

Results flagged for a closer look

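Ltb4r1 was higher under the KO label in T-like cells, at a ratio of 3.87 (104 and 86 UMIs), and lower in epithelial-like cells, at a ratio of 0.459 (44 and 49 UMIs). It was picked out because the single pair of libraries moved in opposite directions in these classes. The difference was not tested.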

How the results depend on the processing

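No paired analysis was possible because each genotype has 1 library. Among the recomputed ratios, 465 moved by less than their counting interval and 65 by more. None of the 7 pairs past 2-fold changed direction under an alternative that gave it a ratio. With expected free RNA subtracted, Ptgs2 in T-like cells was 1.48 CPM under the KO label and 0 CPM under the WT label. That order is the reverse of the main one, and no ratio could be given for it. The count of pairs at least 2-fold higher under the KO label was 1 and became 2 with no mitochondrial filter, with each cell thinned to 1000 UMIs, with mitochondrial and ribosomal transcripts left out of the total, and with each cluster weighted equally. It was 0 with at least 200 summed UMIs, which leaves 22 pairs and drops Ltb4r1 in T-like cells. The count at least 2-fold lower was 6 and became 11 once the 5 cells with the most UMIs of the gene were dropped from each library, which takes a larger share of cells from the smaller class. Over the other alternatives both counts, and the count of 8 genes with the same highest class, stayed within 1.5 times, but the genes behind the last count changed. Under the KO label Ltb4r1 was highest in T-like cells at Leiden resolution 2, with no doublet removal and without mitochondrial and ribosomal transcripts in the total. Under the WT label Alox5ap was highest in mast-like cells with no mitochondrial filter and without those transcripts, and Ptgs1, Hpgd and Ptger2 each changed class in a library under 1 or more weightings or thinning. The Ptgs2 ratio ranged from 0.256 to 0.316 in neutrophil-like, from 0.307 to 0.431 in monocyte/macrophage-like and from 0.0741 to 0.592 in epithelial-like cells, and the Ltb4r1 ratio in T-like cells from 2.17 to 3.95. Ltb4r1 passed 2-fold under some alternatives in neutrophil-like (1.49 to 2.15) and monocyte/macrophage-like cells (1.31 to 2.55), and Alox5ap in epithelial-like cells fell short of it under some (0.269 to 0.776). Where subtracting free RNA left 0 in a library, as for Ptgs2 in T-like and mast-like cells, no ratio was given. In mast-like cells Ptgs2 ranged from 0.152 to 5.67 and Lta4h from 0.0369 to 1.89. Depth left 32 of 50 pairs with 50 UMIs or more.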

Other observations

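Cells of the epithelial-like class with at least 3 tuft markers numbered 25 and 12 (KO and WT). They held 52.2% and 56% of the epithelial UMIs of Ltc4s, the leukotriene C4 synthase gene, and 12.1% and 4.24% of those of Hpgds. Ltc4s stood at 29.8 CPM (20.9 to 41.3) and 33.4 CPM (18.3 to 56.1) in these cells. Alox5ap stood at 23.2 CPM (15.4 to 33.5) and 43.0 CPM (25.5 to 68.0), and Alox5 at 1 UMI in each library. Ptgs1 held 7 and 2 UMIs there, and Ptgs2 2 and 41 UMIs.

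B-like cells, 137 and 279 in number, held Ptger4 at 39.5 CPM (21.6 to 66.3) and 77.5 CPM (56.3 to 104), and Alox5ap at 70.6 and 56.4 CPM, while Ptgs1, Ptges, Hpgd and Ltb4r1 had 0 UMIs in both libraries. In plasma-like cells, 161 and 136 in number, Ptgs2 held 1 and 53 UMIs, 0.406 CPM (0.0103 to 2.26) and 36.4 CPM (27.2 to 47.6). S100a8 and S100a9 summed to 116 and 2438 CPM in these plasma-like cells. The Ptgs2 expected under the WT label was 26.9 CPM from neutrophil-like, 17.3 CPM from monocyte/macrophage-like and 1.58 CPM from epithelial-like RNA, together more than the level observed. The monocyte/macrophage-like part may be too large, as given above for T-like cells.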
